A study of Mus musculus with 22 samples.

Results

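The genes described here are those of the arcuate melanocortin system, the hypothalamic circuit that sets food intake and energy use against the body's fat stores. They were chosen by name, as the probe sets whose gene symbol is Pomc, Agrp, Npy, Cartpt, Mc3r, Mc4r, Pcsk1, Pcsk2 or Cpe. Of these 9 genes, 7 had a probe set, 1 each, among the 23492 probe sets of the arrays, and each of the 7 probe sets listed that symbol alone. Agrp and Pcsk2 are not analysed here. RNA came from the hypothalamus of lean male C57BL/6J mice that were 8 weeks old and had been on normal chow for 2 weeks. Celastrol, a plant triterpenoid, was given into the peritoneum, and the vehicle was dimethyl sulfoxide (DMSO), 25 µl per day. The groups were celastrol for 6 h (4 arrays) and DMSO for 6 h (4 arrays), celastrol for 1 day (3 arrays) and DMSO for 1 day (4 arrays), and celastrol for 4 days (3 arrays) and DMSO for 4 days (4 arrays). The labels state 250 µg of celastrol per kg for the 6 h mice and a volume of 100 µl for the mice treated for 1 and 4 days, whose dose per kg was not known here. All groups were lean and of a single strain, each array is labelled as a biological replicate, and a group without any injection is not analysed here.

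Neurons of the arcuate nucleus make pro-opiomelanocortin (Pomc), whose cleavage gives melanocortin peptides, and most of these neurons in rodents also make the peptide CART (Cartpt). A neighbouring population makes agouti-related peptide and neuropeptide Y (Npy) and acts in the opposite direction, towards feeding. Melanocortin peptides act on the receptors Mc3r and Mc4r, and the prohormone convertase Pcsk1 and the carboxypeptidase Cpe take part in cutting the precursors into active peptides. The anterior and intermediate lobes of the pituitary gland, which hangs below the arcuate nucleus, also make Pomc.

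The values are log2 intensities, so a difference of 1 is a doubling, and array medians lay between 8.58 and 8.66. Of the markers checked against the labelled tissue, 11 of 12 markers that define hypothalamus (such as Hcrt, Pmch, Avp and Oxt) were above the array median in at least 11 of 22 arrays, the exception being Crh, which was below it in all 22. Of 13 markers of neighbouring brain regions and choroid plexus, 6 were also above it in at least 11 arrays (Prox1, Wfs1, Tcf7l2, Prkcd and Rora in all 22, Lef1 in 14), while Ttr, Folr1, Neurod6, Tbr1 and Clic6 were below it in all 22. Of 15 measured pituitary markers (of 18 listed), 2 were above the array median in at least 11 arrays, yet the mean of 6 pituitary hormone genes (Gh, Prl, Cga, Tshb, Lhb and Fshb) differed widely between arrays. It reached 9.68 in DMSO 6 h replicate 4 and 9.38 in celastrol 4 days replicate 2, which stand apart in pituitary RNA. The next array, DMSO 1 day replicate 3, had 8.40, which is 0.24 above the highest of the other 19. The Pomc differences are given below with and without the 2 and the 3 highest arrays. In whole tissue, fewer cells of a type and less RNA per cell cannot be told apart.

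No melanocortin gene was called as different between celastrol and DMSO at any time. With limma over all 23492 probe sets, a Benjamini-Hochberg adjusted p under 0.05 counting as called, 0 of 7 genes were called at 6 h, where 0% of all probe sets were called, 0 of 7 at 1 day (0.00426% of all), 0 of 7 at 4 days (0.00851% of all) and 0 of 7 on the average of the 3 times (0.0341% of all). At an unadjusted p under 0.05 the genes still numbered 0 of 7 in each of these 4 comparisons, while 923, 1269, 953 and 861 of all probe sets reached it at 6 h, at 1 day, at 4 days and on the average. The 21 differences at single times (7 genes, 3 times) ran from -0.13 to 0.09 log2 units, 14 above 0 and 7 below, with a smallest unadjusted p of 0.0912 and a smallest adjusted p of 0.887. In all 21 the celastrol and DMSO arrays overlapped, and groups that did not overlap were themselves uncommon, at 2.59% of all probe sets at 6 h, 5.21% at 1 day and 6.03% at 4 days. Among the 21, the smallest exact permutation p (two-sided) was 0.143, where 0.0286 is the smallest that these group sizes allow. The 95% intervals, each taken alone, limit what could have been missed in RNA of the whole hypothalamus, not in arcuate neurons alone. At single times none reached beyond a fall of -26.0% (Pomc at 1 day) or a rise of 31.2% (Npy at 4 days). The median of the 7 genes was 0.03 at 6 h, -0.00 at 1 day, 0.03 at 4 days and 0.01 on the average, beside 0.00, -0.00, 0.01 and 0.00 over all probe sets.

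**Figure D1:**
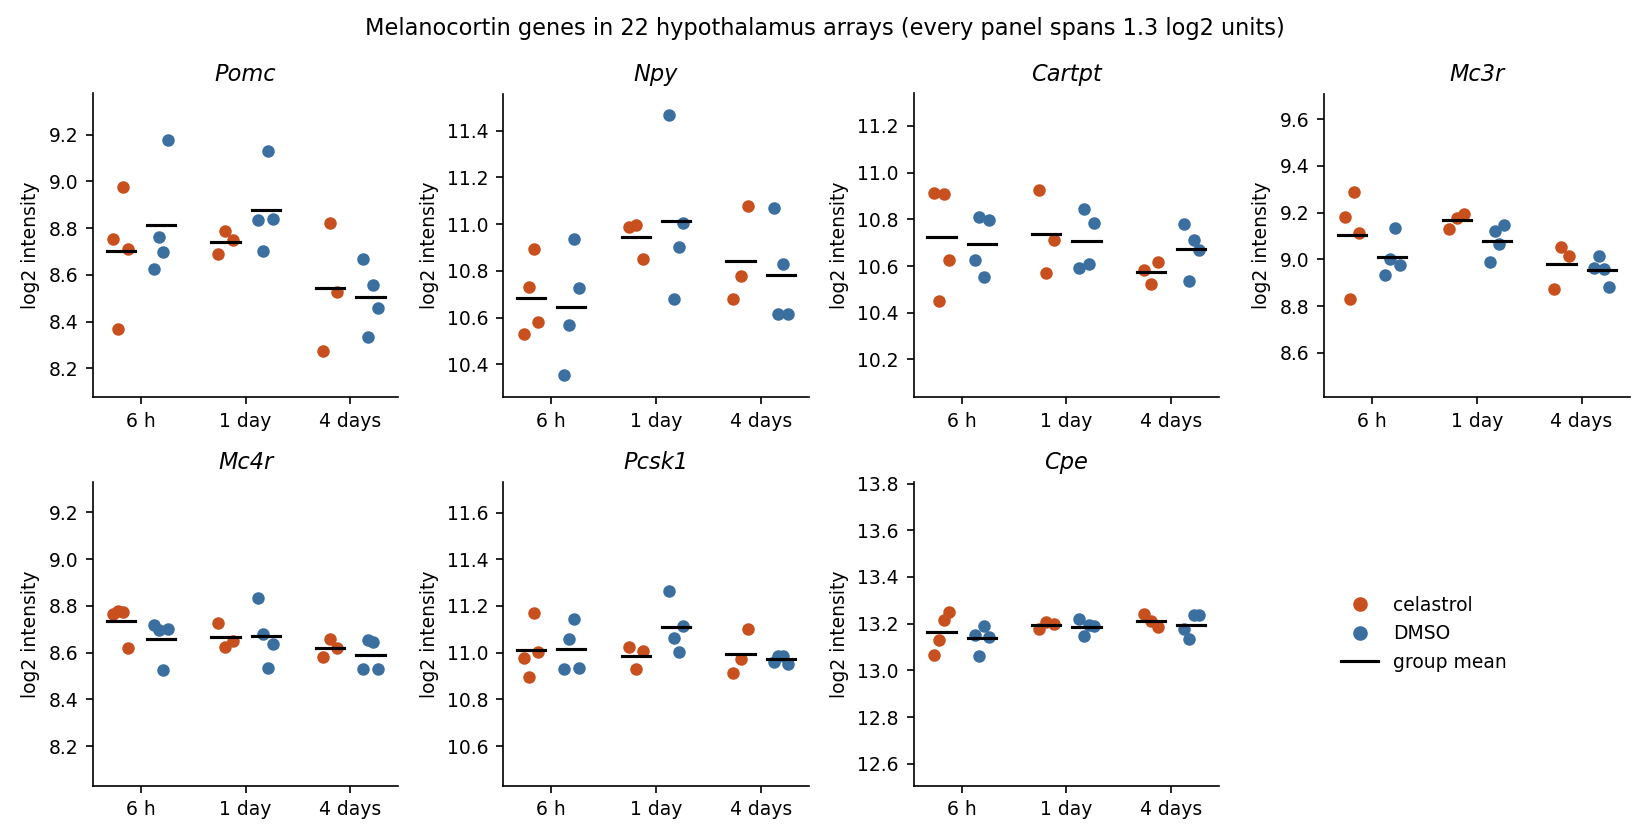
Log2 intensity (vertical axis) of the 7 measured melanocortin genes in every array, by time on the horizontal axis, celastrol left of DMSO, with a bar at each group mean. Celastrol and DMSO arrays overlap for every gene at every time, Pomc and Npy scatter most within groups, and Cpe lies between 13.06 and 13.25 throughout.

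The ligand precursors come first. Pomc (probe set 10394240) encodes the precursor of α-MSH, ACTH and β-endorphin. Pomc is set beside pituitary hormone RNA below. The 250 bases upstream of its start are shown because this start serves both the arcuate and the pituitary transcript. They are the plus strand of chr12:3954695-3954944 (RefSeq, GRCm38.p6), with the only match to the letters TATAAA in capitals, its first base 25 bases before the start.
Pomc promoter: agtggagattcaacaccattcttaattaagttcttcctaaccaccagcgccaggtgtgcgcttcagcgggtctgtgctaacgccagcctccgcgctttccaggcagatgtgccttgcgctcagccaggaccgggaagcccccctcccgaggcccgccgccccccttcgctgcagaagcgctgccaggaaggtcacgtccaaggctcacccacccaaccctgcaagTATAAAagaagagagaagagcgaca
The windows searched were the 250 bases before a start, and 12.4% of 32851 RefSeq windows held TATAAA on either strand. The spaced palindrome TTCNNNGAA, the letters that STAT proteins such as STAT3 recognise, was in 7.02% of windows and in 0 of the 5 melanocortin genes with an entry (Pomc, Npy, Cartpt, Mc3r and Pcsk1). That says only that these letters are not in these windows.

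At 6 h, Pomc measured 8.75, 8.37, 8.98 and 8.71 in the celastrol arrays, against 8.62, 8.76, 8.70 and 9.18 in the DMSO arrays. The celastrol arrays held the lowest value and DMSO replicate 4, the array richest in pituitary hormones, the highest, and 3 of 4 celastrol arrays lay inside the DMSO range. The difference was -0.11 (SE 0.13, 95% interval -0.39 to 0.17, adjusted p = 0.999 by limma). At 1 day the celastrol arrays read 8.69, 8.79 and 8.75, against 8.83, 8.70, 9.13 and 8.84 in the DMSO arrays. All 3 celastrol arrays were below the DMSO mean, but 2 of them were within the DMSO range, and the difference of -0.13 (SE 0.14, 95% interval -0.43 to 0.17) gave an adjusted p of 0.930 by limma and an exact permutation p of 0.229. At 4 days celastrol arrays had 8.28, 8.82 and 8.53, against 8.67, 8.33, 8.56 and 8.46 for DMSO, so that celastrol supplied both the highest and the lowest array of that time (difference 0.04, SE 0.14). Averaged over times, Pomc differed by -0.07 (SE 0.08, 95% interval -0.24 to 0.10), an interval of -15.2% to 7.17%.

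Npy (probe set 10538247) encodes neuropeptide Y, the appetite-raising peptide made beside agouti-related peptide. At 6 h it measured 10.53, 10.73, 10.89 and 10.58 in celastrol arrays, against 10.35, 10.57, 10.94 and 10.73 in DMSO arrays, all 4 celastrol arrays lying inside the DMSO range. Values at 1 day were 10.99, 10.99 and 10.85 with celastrol, against 11.47, 10.68, 10.90 and 11.004 with DMSO. DMSO replicate 1 stood above the other DMSO arrays, and the 3 celastrol arrays sat close together within the range of the DMSO arrays. At 4 days the celastrol arrays gave 10.68, 10.78 and 11.08, against 11.07, 10.61, 10.83 and 10.61 in the DMSO arrays, again interleaved. The differences were 0.04 (SE 0.15), -0.07 (SE 0.16) and 0.06 (SE 0.16) at 6 h, 1 day and 4 days, and 0.01 (SE 0.09, 95% interval -0.17 to 0.20) on the average. Npy was the loosest of the 7 genes within groups, with a residual SD of 0.228, higher than that of 98.3% of probe sets, and Pomc followed with 0.207 (97.2%). The intervals of both are accordingly wide.

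Cartpt (probe set 10411527), the precursor of the CART peptides that reduce feeding, measured 10.91, 10.45, 10.91 and 10.63 in celastrol arrays at 6 h, against 10.62, 10.81, 10.55 and 10.80 in DMSO arrays. The 2 highest celastrol arrays were above every DMSO array, 1 was below them all and 1 lay among them. At 1 day they read 10.93, 10.57 and 10.71, against 10.59, 10.84, 10.61 and 10.78 for DMSO, and at 4 days 10.58, 10.52 and 10.62, against 10.78, 10.54, 10.71 and 10.67 for DMSO. At 4 days all 3 celastrol arrays were below the DMSO mean, 2 of them within the DMSO range, and the difference of -0.10 (SE 0.11, 95% interval -0.32 to 0.12) had an adjusted p of 1.00 by limma and an exact permutation p of 0.200. The average over times was -0.01 (SE 0.06, 95% interval -0.14 to 0.11).

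Mc3r (probe set 10478959), the melanocortin receptor also found on arcuate neurons themselves, had the largest positive differences of the set at 6 h, at 1 day and on the average, but not at 4 days. At 6 h it measured 9.18, 8.83, 9.29 and 9.11 in celastrol arrays, against 8.93, 9.001, 9.13 and 8.98 in DMSO arrays, so celastrol held both the 2 highest arrays and the lowest. Celastrol arrays at 1 day gave 9.13, 9.18 and 9.19, against 8.99, 9.12, 9.07 and 9.15 for DMSO, all 3 above the DMSO mean and 2 above every DMSO array. At 4 days the values were 8.87, 9.05 and 9.01 with celastrol, against 8.96, 9.02, 8.96 and 8.88 with DMSO, which overlap. The differences were 0.09 (SE 0.07), 0.09 (SE 0.08) and 0.02 (SE 0.08) at 6 h, 1 day and 4 days. The value at 6 h rested on single arrays, being 0.03 without celastrol replicate 3 and 0.18 without celastrol replicate 2. On the average 8 of 10 celastrol arrays were above the DMSO mean of their time, by 0.07 (SE 0.04, 95% interval -0.02 to 0.16, or -1.69% to 11.7%), with an exact permutation p of 0.117 and an adjusted p of 1.00 by limma.

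Mc4r (probe set 10459512), the receptor through which melanocortin peptides chiefly restrain feeding, lay between 8.53 and 8.83 in all 22 arrays and above the array median in 16, as did Pomc, while the other 5 genes were above it in all 22. At 6 h it measured 8.77, 8.78, 8.77 and 8.62 in celastrol arrays, against 8.72, 8.70, 8.53 and 8.70 in DMSO arrays: 3 celastrol arrays were above every DMSO array and the remaining celastrol array was inside the DMSO range. The difference there was 0.08 (SE 0.06, 95% interval -0.05 to 0.20, exact permutation p = 0.343). At 1 day the celastrol arrays had 8.73, 8.62 and 8.65, against 8.83, 8.68, 8.53 and 8.64 for DMSO, and at 4 days 8.58, 8.66 and 8.62, against 8.53, 8.66, 8.65 and 8.53 for DMSO. These groups covered each other, with differences of -0.00 (SE 0.06) and 0.03 (SE 0.06). The average was 0.03 (SE 0.04, 95% interval -0.04 to 0.11).

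Of the processing enzymes, Pcsk1 (probe set 10406229), the convertase that makes the first cuts in pro-opiomelanocortin, came nearest to a difference. At 1 day it measured 11.03, 10.93 and 11.01 in celastrol arrays, against 11.26, 11.06, 11.002 and 11.11 in DMSO arrays. All 3 celastrol arrays were below the DMSO mean and 1 was below every DMSO array, a difference of -0.12 (SE 0.07, 95% interval -0.27 to 0.02) with an unadjusted p of 0.0912, an adjusted p of 0.887 by limma and an exact permutation p of 0.143. At 6 h the values were 10.98, 10.90, 11.17 and 11.002 with celastrol, against 10.93, 11.06, 11.14 and 10.93 with DMSO, and at 4 days 10.91, 10.97 and 11.10 with celastrol, against 10.96, 10.99, 10.99 and 10.95 with DMSO, giving -0.01 (SE 0.06) and 0.03 (SE 0.07). The average was -0.03 (SE 0.04, 95% interval -0.12 to 0.05).

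Pcsk1 and Cartpt share a stretch of promoter letters, TGACGTCA, the cyclic AMP response element bound by CREB, which was found in 1.55% of all windows. Both stretches are shown with that palindrome in capitals, for Cartpt from the minus strand of chr13:99900778-99900805 and for Pcsk1 from the plus strand of chr13:75089769-75089796 (RefSeq, GRCm38.p6).
Cartpt promoter: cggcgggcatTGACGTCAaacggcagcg
Pcsk1 promoter: caggtagatcTGACGTCAagagatggct
The palindrome begins 112 bases before the start used for Cartpt and 78 bases before that used for Pcsk1. Both stretches lie inside the annotated span of their gene, so neither start is the outermost one of its gene. The palindrome overlaps neither of the other motifs searched, since neither of those matched in these windows. A relation between the levels of the 2 genes was not shown (r = 0.21 over 22 arrays with group means removed, permutation p = 0.482). Their r was 0.64 in celastrol arrays and -0.33 in DMSO arrays, a contrast that was not tested.

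Cpe (probe set 10578904), the carboxypeptidase that trims the ends left by the convertases, was the steadiest gene, its residual SD of 0.0511 being lower than that of all but 6.49% of probe sets. Celastrol arrays lay between 13.07 and 13.25 at 6 h, between 13.18 and 13.21 at 1 day and between 13.18 and 13.24 at 4 days, against 13.06 to 13.19, 13.15 to 13.22 and 13.13 to 13.24 in the DMSO arrays of those times. The differences were 0.03, 0.01 and 0.02 with SEs of 0.04, 0.05 and 0.05. The average was 0.02 (SE 0.03, 95% interval -0.04 to 0.07, or -2.57% to 5.10%). Single-time intervals were wider, -4.23% to 8.47% at 6 h, -6.02% to 7.51% at 1 day and -5.44% to 8.18% at 4 days.

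**Figure D2:**
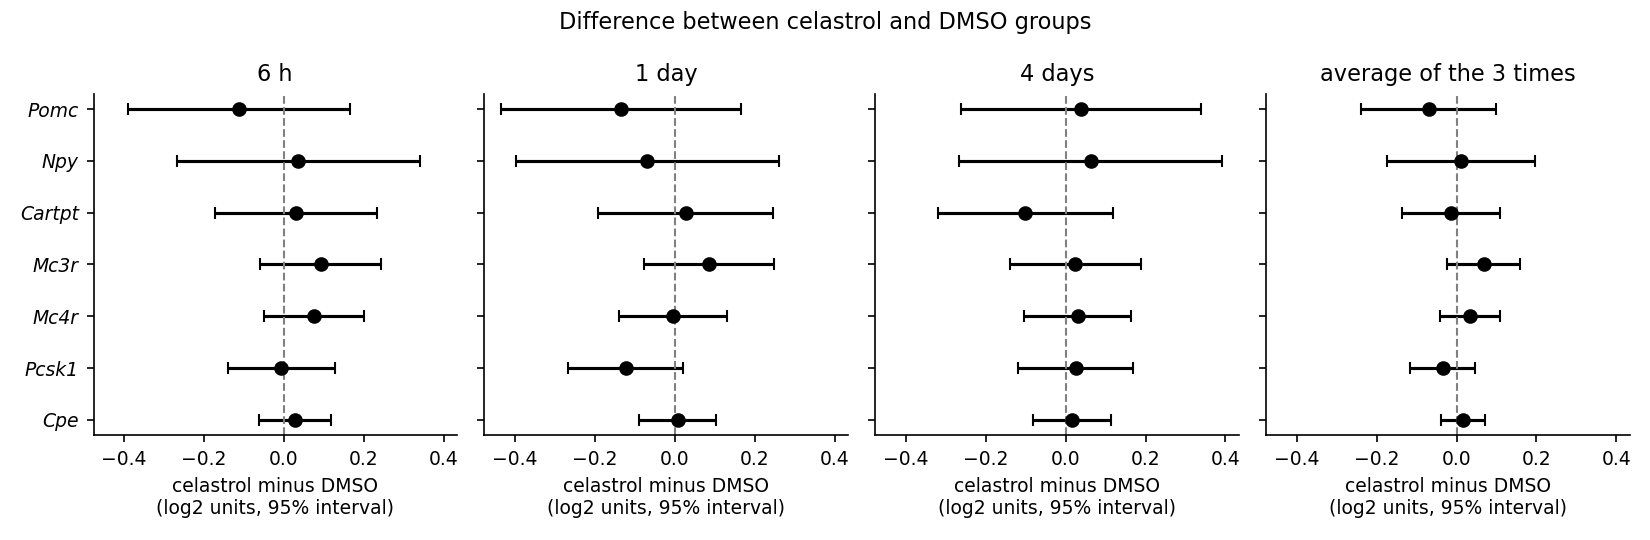
Celastrol minus DMSO in log2 units (horizontal axis) for the 7 genes (rows) at 6 h, 1 day, 4 days and on the average, with 95% intervals from limma. Every interval includes 0, and they are widest for Npy and Pomc and narrowest for Cpe.

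The effect of celastrol was not shown to differ between times for any of the 7 genes. By limma, 0 of 7 were called for 1 day against 6 h (0% of all probe sets called, 6.41% at an unadjusted p under 0.05), 0 of 7 for 4 days against 6 h (0% and 3.53%) and 0 of 7 for 4 days against 1 day (0% and 5.44%), and none of the 21 values reached an unadjusted p under 0.05. They ran from -0.13 to 0.17 with a smallest unadjusted p of 0.146 for Pcsk1, whose difference at 4 days was above that at 1 day by 0.15 (SE 0.10). The 0.17 was that of Pomc for 4 days against 1 day. It was 0.04 with the pituitary hormone mean as a covariate, 0.03 without the 2 arrays highest in these hormones and -0.05 without the 3 highest. For 4 days against 6 h the Pomc value of 0.15 became -0.14, -0.11 and -0.11 in the same settings. When the 6 groups were ordered by mean level for each gene, all 35 gaps between neighbours were smaller than the larger SD of the 2 groups. Sorting keeps gaps between neighbours small, so this says nothing of groups farther apart, such as DMSO at 1 day and 4 days for Pomc. DMSO at 1 day was the highest group for Pomc (8.88 ± 0.18, SD, n = 4), Npy (11.01 ± 0.33, SD, n = 4) and Pcsk1 (11.11 ± 0.11, SD, n = 4). Celastrol at 1 day was highest for Cartpt (10.74 ± 0.18, SD, n = 3) and Mc3r (9.17 ± 0.03, SD, n = 3), celastrol at 6 h for Mc4r (8.73 ± 0.08, SD, n = 4) and celastrol at 4 days for Cpe (13.21 ± 0.03, SD, n = 3).

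Differences between times were tested in the DMSO arrays, and limma called none for the 7 genes. Pomc was lower at 4 days than at 1 day, with 8.67, 8.33, 8.56 and 8.46 in DMSO arrays at 4 days, against 8.83, 8.70, 9.13 and 8.84 in DMSO arrays at 1 day. The 4 arrays of 4 days were all below the 4 of 1 day. The difference was -0.37 (SE 0.13, 95% interval -0.65 to -0.09, or -36.3% to -6.33%), with an unadjusted p of 0.0112, an adjusted p of 0.359 by limma and an exact permutation p of 0.0286, the smallest possible. Pcsk1 did likewise over a smaller span, 10.96, 10.99, 10.99 and 10.95 at 4 days against 11.26, 11.06, 11.002 and 11.11 at 1 day (difference -0.14, SE 0.06, adjusted p = 0.485 by limma, exact permutation p = 0.0286). These 2 of 7 genes had groups that did not overlap, as did 6.84% of all probe sets. Of the 7 genes, 0 were called by limma, and 0.00426% of all probe sets were called. Still, 2 of 7 genes (Pomc and Pcsk1) and 2321 of all probe sets (9.88%) had an unadjusted p under 0.05 by limma.

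Against 6 h, Pomc in DMSO arrays of 4 days was lower by a log2 difference of -0.31 (SE 0.13, adjusted p = 0.380 by limma, exact permutation p = 0.0571), the groups overlapping. Here 0 of 7 genes were called by limma and 0.0468% of all probe sets. An unadjusted p under 0.05 by limma was reached by 1 of 7 genes (Pomc) and by 2808 of all probe sets (12%). Npy in DMSO arrays of 1 day exceeded that of 6 h by 0.37 (SE 0.15, adjusted p = 0.452 by limma, exact permutation p = 0.143), with overlapping groups. For 1 day against 6 h, 0 of 7 genes and 0% of all probe sets were called. There, 1 of 7 genes (Npy) and 2177 of all probe sets (9.27%) had an unadjusted p under 0.05 by limma. The DMSO groups of each time also serve as controls for celastrol, so the celastrol differences share these arrays.

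Pomc moved with pituitary RNA. Over the 22 arrays, with group means removed, its level correlated with the mean of the 6 pituitary hormone genes at r = 0.77 (permutation p = 0.00109, adjusted p = 0.00763 over the 7 genes) and Spearman's rho = 0.74 (permutation p = 0.00174, adjusted 0.0122). The array with the highest hormone mean of all, DMSO 6 h replicate 4, also had the highest Pomc of all, 9.18. DMSO 1 day replicate 3, the third in hormones, had the second highest Pomc, 9.13. Celastrol 4 days replicate 2, the second in hormones, had the highest Pomc of the 7 arrays at 4 days, 8.82, but rank 6 of all 22. Other arrays were less alike. Celastrol 6 h replicate 3 had rank 3 in Pomc and 10 in hormones, and DMSO 1 day replicate 4 had ranks 4 and 20. Without the 2 arrays farthest from the median in hormones (DMSO 6 h replicate 4 and celastrol 4 days replicate 2) r was 0.63 (permutation p = 0.0132, n = 20). Within times r was 0.73 at 6 h, 0.72 at 1 day and 0.86 at 4 days, and it was 0.64 in celastrol arrays and 0.89 in DMSO arrays. The other 6 genes had r between -0.11 and 0.17 with the hormone mean, and their smallest adjusted permutation p was 0.918 for r and 0.544 for rho.

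**Figure D3:**
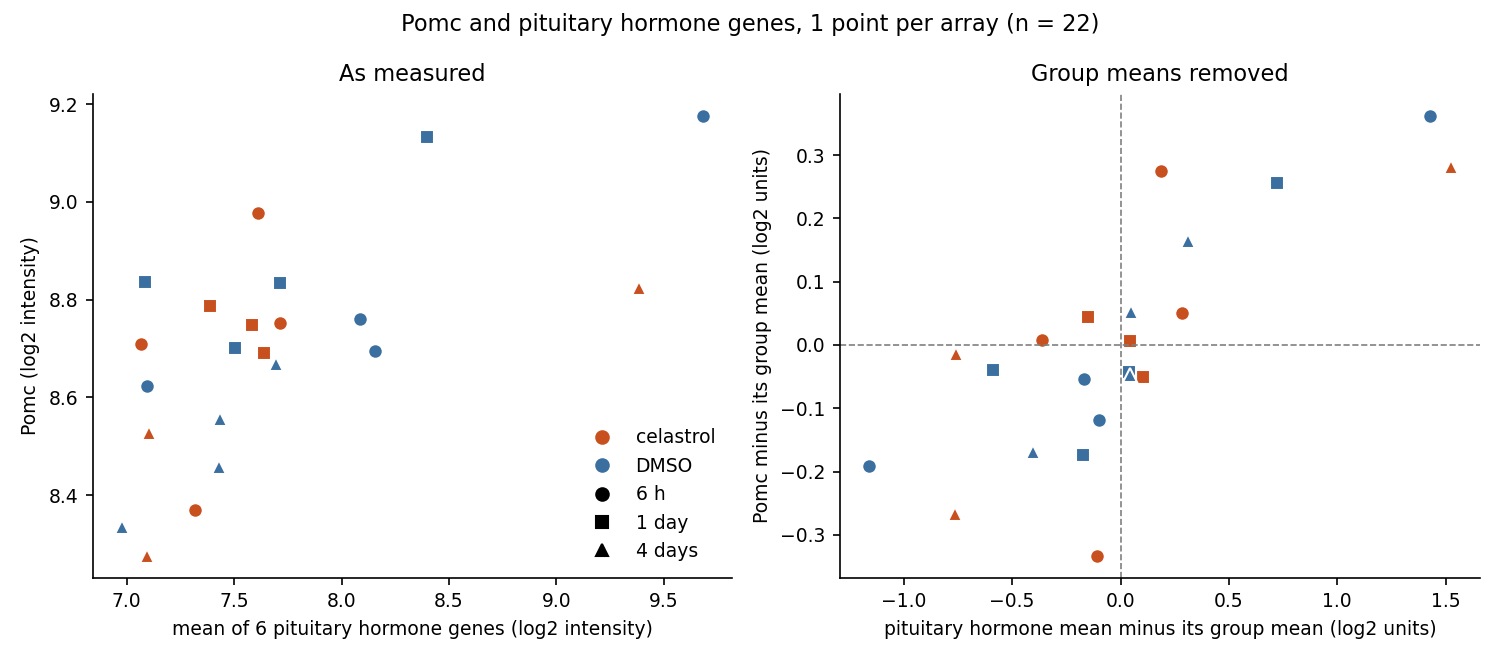
Pomc (vertical axis) against the mean of 6 pituitary hormone genes (horizontal axis), both in log2 units, 1 point per array, as measured on the left and with group means removed on the right. Arrays with more pituitary hormone RNA have more Pomc in both treatments (r = 0.77 with group means removed), and 2 arrays, at 9.68 and 9.38 as measured, lie far to the right.

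Growth hormone (Gh) and prolactin (Prl), made by pituitary cells, and Cga, the subunit shared by several pituitary hormones, were uneven between arrays in different ways. At 6 h Gh measured 7.87, 7.67, 7.57 and 7.74 in celastrol arrays, against 7.60, 10.57, 9.02 and 11.48 in DMSO arrays, and Prl 6.32, 6.45, 6.03 and 6.19 in celastrol arrays, against 6.60, 7.15, 7.46 and 10.997 in DMSO arrays. Cga did not share that split, with 10.41, 8.64, 10.65 and 7.26 in celastrol arrays, against 7.33, 9.87, 10.63 and 11.58 in DMSO arrays. At 4 days the array highest in Gh was a celastrol one, Gh reading 8.26, 11.16 and 7.92 with celastrol, against 7.89, 7.52, 9.28 and 7.69 with DMSO. The hormone mean itself was not past the threshold of an exact permutation test at any time, with 7.43 ± 0.29 in celastrol and 8.25 ± 1.07 in DMSO arrays at 6 h (SD, n = 4 each, p = 0.171). At 1 day it was 7.54 ± 0.13 with celastrol (SD, n = 3) and 7.68 ± 0.55 with DMSO (SD, n = 4), exact p = 0.743, and at 4 days 7.86 ± 1.32 with celastrol (SD, n = 3) and 7.38 ± 0.30 with DMSO (SD, n = 4), exact p = 0.686. The mean of all 15 pituitary markers ran from 7.74 to 8.00 in celastrol and from 7.75 to 8.82 in DMSO arrays at 6 h, from 7.94 to 7.95 in celastrol and from 7.71 to 8.29 in DMSO arrays at 1 day, and from 7.70 to 8.68 in celastrol and from 7.64 to 8.01 in DMSO arrays at 4 days. Tshb, Fshb, Tbx19, Pitx1, Pax7, Gnrhr and Timd4 stayed below the array median in all 22 arrays.

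The sign of the Pomc difference at 6 h and 4 days changed when this RNA was taken into account. With the hormone mean as a covariate the difference at 6 h was 0.07, in place of -0.11, and at 4 days -0.07, in place of 0.04, while at 1 day it stayed negative (-0.10 against -0.13). Without the 2 highest arrays, a choice made after seeing the data, it was 0.01 at 6 h, -0.13 at 1 day, -0.10 at 4 days and -0.08 on the average. Without the 3 highest, likewise chosen, it was 0.01 at 6 h, -0.05 at 1 day, -0.10 at 4 days and -0.05 on the average. None of these was called. The lower Pomc of DMSO arrays at 4 days shrank against 6 h from a log2 difference of -0.31 to -0.12 with the covariate and -0.19 without the 2 or the 3 arrays. Against 1 day it was -0.37 with all arrays, -0.31 with the covariate, -0.37 without the 2 arrays and -0.29 without the 3. The part of pituitary tissue in these values was not tested further.

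Among the 7 genes themselves, 21 pairs were compared over the 22 arrays with group means removed, and 0 pairs passed after Benjamini-Hochberg adjustment. The strongest was Npy with Pcsk1, at r = 0.66 (permutation p = 0.00748, adjusted p = 0.157) and rho = 0.49 (permutation p = 0.0430, adjusted 0.784). It was 0.53 without the 2 arrays farthest from the Npy median (DMSO 6 h replicate 1 and DMSO 1 day replicate 1), and 0.62, 0.78 and 0.59 within 6 h, 1 day and 4 days. Pcsk1 and Mc3r came next at r = 0.51 (adjusted p = 0.663), which was 0.24 without celastrol 6 h replicates 2 and 3. Pomc and Mc3r had r = 0.48 (adjusted p = 0.663), made of 0.91 in celastrol arrays and -0.22 in DMSO arrays, a contrast that was not tested. Pomc and Cartpt, made by the same arcuate neurons, had r = 0.35 (adjusted p = 0.696). Cpe with Mc4r was the most negative pair, at r = -0.33, and 16 of 21 pairs were positive.

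**Figure D4:**
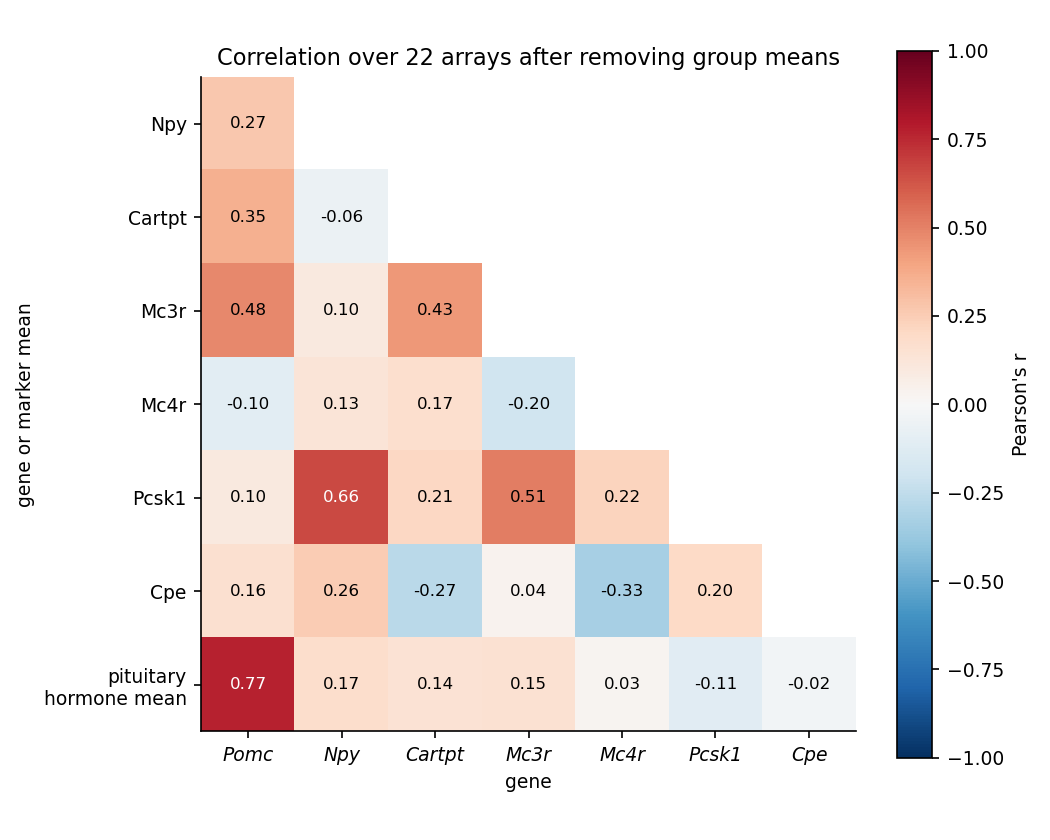
Pearson's r over 22 arrays, after removing group means, between the melanocortin genes and, in the bottom row, between each gene and the mean of 6 pituitary hormone genes. Red is positive and blue negative. Pomc with the pituitary hormones (0.77) and Npy with Pcsk1 (0.66) are the strongest squares.

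The genes most like each precursor were picked by Pearson's r over the same 22 arrays. Candidates were 10366 other probe sets that had 1 symbol and were above the array median in at least 11 arrays. Of the pituitary hormone genes only Cga met this, so Gh, Prl, Tshb, Lhb and Fshb could not be picked. The r of a picked gene is a description with no test, since the gene was picked for it. Those nearest to Npy were Kdm4a (r = 0.86), Atg101 (0.85), Isl1 (0.83), Pttg1 (0.83) and Rprm (0.82). Isl1, a homeodomain transcription factor gene, ran from 9.30 to 9.71. Cartpt was closest to Adhfe1 (r = 0.86), Prr13 (0.86), Crip2 (0.81), Mpped2 (0.80) and Dnajb2 (0.78). Pomc had weaker company, Lmf2 (r = 0.76), Nt5dc2 (0.75), Pltp (0.73), Maf (0.72) and Ptbp1 (0.72), all at or below its r with the pituitary hormone mean.

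The wider pathway was followed on lists written from general knowledge. Of 31 genes of prohormone processing and secretory granules, 30 were measured. On the average of the 3 times 12 of these were higher and 18 lower with celastrol, 0 were called and 0 had an unadjusted p under 0.05 (limma), and the median was -0.00 beside 0.00 over all probe sets. The smallest p values belonged to Vgf, a granule protein cut into neuropeptides (-0.08, SE 0.05, adjusted p = 1.00 by limma), and Ctsl, a cathepsin that can also cut pro-opiomelanocortin (-0.05, SE 0.03). Of 33 genes of the melanocortin receptor family, its accessory proteins and its signalling, 29 were measured, 19 higher and 10 lower with a median of 0.01, 0 called and 1 at an unadjusted p under 0.05. That gene was Mrap2, which encodes an accessory protein of Mc4r (-0.07, SE 0.03, unadjusted p = 0.0341, adjusted p = 1.00 by limma), followed by the receptor gene Gpr83 (0.08, SE 0.04). The lowest value of this list was -0.57 at 1 day for Kcnj13, a potassium channel gene that is also a choroid plexus marker, with an unadjusted p of 0.271.

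Transcription factors of arcuate neurons were measured for 26 of 28 genes, 17 higher and 9 lower, with a median of 0.02, 0 called and 0 at an unadjusted p under 0.05 (limma). Klf4 (0.11, SE 0.06) and Stat3, the transcription factor of leptin signalling (0.06, SE 0.03), had the smallest p values, with adjusted p = 1.00 for each by limma. Receptors and channels of the same neurons were measured for 24 of 25 genes, of which 18 were higher and 6 lower with a median of 0.02, 0 were called and 4 had an unadjusted p under 0.05, all 4 higher, against 3.67% of all probe sets in either direction. The first 2 were the serotonin receptor gene Htr1b (0.11, SE 0.04, unadjusted p = 0.00457, adjusted p = 0.942 by limma) and the interleukin-6 receptor gene Il6ra (0.09, SE 0.04, unadjusted p = 0.0190). Markers of other arcuate neurons, 16 of 16 measured, were higher in 5 and lower in 11 with a median of -0.03, 0 called and 1 at an unadjusted p under 0.05, the opioid-related peptide gene Pnoc (-0.11, SE 0.04, unadjusted p = 0.0227). Gad1, which makes the transmitter GABA, followed with -0.05 (SE 0.03). The lowest and the highest single values of the 5 lists belonged to Slc6a3, the dopamine transporter gene of this last list. They were -0.79 (SE 0.42) at 4 days and 0.54 (SE 0.39) at 6 h, with adjusted p = 1.00 and 0.999 by limma. At the single times these 5 lists also had 0 genes called.

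**Figure D5:**
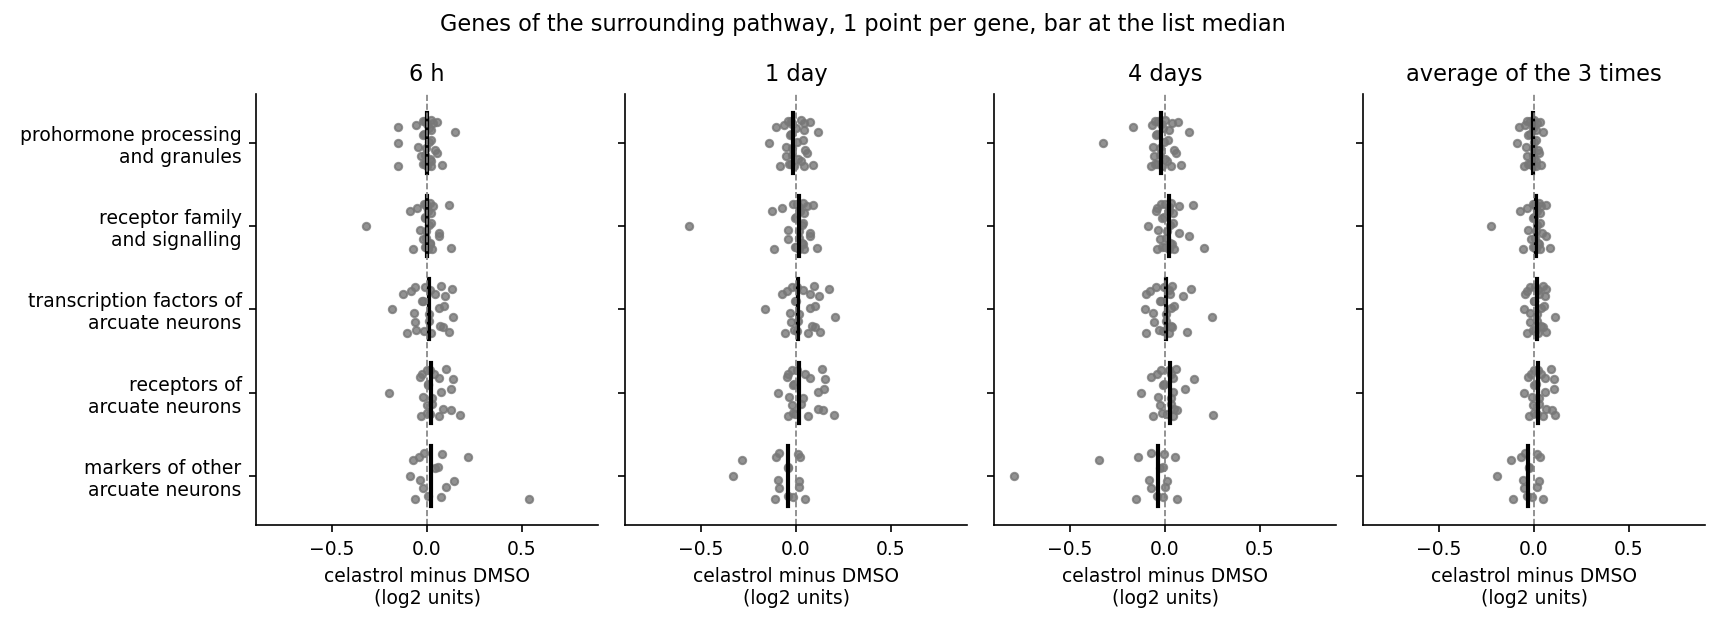
Celastrol minus DMSO in log2 units (horizontal axis) for every measured gene of 5 pathway lists (rows), at 6 h, 1 day, 4 days and on the average, with a bar at the list median. List medians stay near 0, and the far points are single genes, such as Slc6a3 at -0.79 at 4 days and Kcnj13 at -0.57 at 1 day.

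Markers of other cell types and tissues were followed beside the melanocortin genes. On the average of the 3 times, 0 markers of any list were called by limma. Neuron markers were higher in 4 and lower in 4 of 8 with a median of 0.00, hypothalamic markers higher in 3 and lower in 9 of 12 (median -0.01), and markers of neighbouring brain regions and choroid plexus higher in 6 and lower in 7 of 13 (median -0.01). Pituitary markers were higher in 7 and lower in 8 of 15, with a median of -0.00. Astrocyte markers were higher in 8 of 8 (median 0.03) and tanycyte markers in 7 of 7 (median 0.06), with 0 of either at an unadjusted p under 0.05. Of all probe sets, 52.9% were higher on the average. Microglia markers were higher in 6 of 8 (median 0.05, 3 at an unadjusted p under 0.05), oligodendrocyte markers in 3 of 7 (median -0.00, 0) and endothelial markers in 3 of 7 (median -0.00, 2), where 3.67% of all probe sets had an unadjusted p under 0.05. By time, microglia markers were higher in 4, 3 and 7 of 8 at 6 h, 1 day and 4 days (medians 0.01, -0.02 and 0.12, with 1, 1 and 3 at an unadjusted p under 0.05). Endothelial markers were higher in 4, 1 and 5 of 7 (medians 0.00, -0.17 and 0.07, with 0, 3 and 2). Astrocyte markers were higher in 7, 5 and 3 of 8 (medians 0.10, 0.02 and -0.01, with 2, 0 and 0). Tanycyte markers were higher in 4, 6 and 6 of 7 (medians 0.00, 0.05 and 0.09, with 0, 0 and 0). Pituitary markers were higher in 3, 9 and 9 of 15 (medians -0.04, 0.02 and 0.04, with 3, 2 and 0), so their even split on the average did not hold at 6 h. The share of all probe sets at that p was 3.93% at 6 h, 5.40% at 1 day and 4.06% at 4 days, and 0 of these markers were called. Apart from the pituitary hormone genes, the part of these markers in the melanocortin values was not tested.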

How the data were processed

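The deposited values are log2 intensities that the authors made with RMA, per the submitters' processing notes. RMA corrects background, normalizes arrays by quantiles and summarizes probes. Neither its version nor a genome build is named in these sources. Per the labels' protocols, total RNA was extracted with Trizol, purified on columns and labelled with biotin. The table held 23492 probe sets in 22 arrays, with values from 3.83 to 15.2. It had 0 columns that matched no sample. The mean correlation of an array with its group lay between 0.994 and 0.998. No array was a copy of another. The platform annotation gave 1 symbol to 20228 probe sets, several to 1399 and none to 1865.

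Group means of the 6 groups were fitted to all 22 arrays and all probe sets with limma 3.58.1 in R 4.3.3 (16 residual and 4.29 prior degrees of freedom). Tests were two-sided, and Benjamini-Hochberg adjustment ran over all 23492 probe sets. Exact permutation tests exchanged treatment labels within a time or, for DMSO, time labels between 2 times. Correlation tests drew 100000 permutations within groups (Python 3.11.15, scipy 1.17.1). The steps were tested on simulated data. The number of arrays limits the precision.

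The genes and the 14 lists (5 of the pathway and 9 of cell types or tissues, shown in the text) were chosen with earlier results of these data known. All 9 genes were to be named, with the 2 genes of smallest unadjusted p on the average for each pathway list where none passed, and the 5 genes most correlated with each precursor. Kcnj13, Th, Slc6a3, Slc18a2, Gh, Prl and Cga were chosen after their values were seen. Alternatives were 2 filters on level, 1 probe set per gene, renormalization, array weights, robust eBayes, limma-trend, median centring, the compared groups alone, the replicate number as a block, a residual component or the pituitary hormone mean as a covariate, and leaving out arrays. Leaving out the 2 or the 3 arrays highest in pituitary hormones was chosen after seeing the data. Promoter windows came from RefSeq (GRCm38.p6), with both strands searched. Figures were drawn with matplotlib 3.10.9.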

Additional observations from a re-analysis of the deposited data

Results flagged for a closer look

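A single array stood far below the others of its group in 2 of 32 groups of 4 tested, both for Mc4r at 6 h. In celastrol arrays at 6 h the lowest Mc4r value was 8.62, and the nearest of the other 3 was 8.77, a gap of 0.922 of the group's range. In DMSO arrays at 6 h the lowest was 8.53, and the nearest was 8.70, a gap of 0.883 of the range. Dixon's 95% critical value for 4 arrays is 0.829, and chance flags about 1 in 20 groups. The difference of Mc4r at 6 h, 0.08, was not called by limma.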

How the results depend on the processing

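The 7 genes were recomputed in 37 other settings, 22 of which left out 1 array, and 0 of the 2590 values were called. Of these, 150 had the other sign, and the smallest adjusted p was 0.173 (Pomc, DMSO 4 days against 1 day, with the filter on 11 arrays). Averages kept their sign in every setting for Pomc, Mc3r, Mc4r, Pcsk1 and Cpe but not for Npy (-0.03 to 0.06) and Cartpt (-0.05 to 0.02). Counts of probe sets called (of 23492 tested, but of 12261 and 11767 with the filters on 3 and 11 arrays and 9880 with 1 probe set per gene) moved as follows, and the cause was not tested. At 1 day the count of 1 became 0 with either filter on level, with 1 probe set per gene above a level filter, with renormalization, without the 2 least typical arrays and without the 3 arrays highest in pituitary hormones, 29 with array weights and 3 with the replicate block. At 4 days the count of 2 became 0 with either filter, without the 2 or the 3 arrays highest in pituitary hormones or with the compared groups alone, 1 with renormalization, median centring or the replicate block, 4 without the 2 least typical arrays, 5 with 1 probe set per gene or limma-trend, 6 with array weights and 8 with the residual component. The average's 8 became 0 with the filter on 11 arrays, 14 with array weights, 3 without the 2 arrays highest in pituitary hormones and 1 without the 3. For DMSO 4 days against 6 h, 11 became 53 and 56 with the filters on 3 and 11 arrays, 25 with 1 probe set per gene, 22 with median centring, 51 with limma-trend, 61 with array weights, 7 with the replicate block, 151 with the residual component, 5 with the pituitary covariate, 24 without the 2 least typical arrays, 4 without the 2 arrays highest in pituitary hormones, and 0 without the 3 or with the compared groups alone. For DMSO 4 days against 1 day, 1 became 69 with either filter, 15 with 1 probe set per gene, 55 with limma-trend, 3 with array weights, 16 with the residual component and 0 with renormalization, median centring, the pituitary covariate, without the 2 least typical arrays, without the 2 or the 3 highest in pituitary hormones or with the compared groups alone. Leaving out 1 array gave 0 to 2 at 1 day, 0 to 5 at 4 days, 3 to 10 on the average, 0 to 65 for DMSO 4 days against 6 h (65 without DMSO 6 h replicate 3) and 0 to 2 for DMSO 4 days against 1 day. In the other 5 comparisons the counts were 0 in every setting. The replicate block called 0 of the 7 genes, and same-numbered arrays correlated between -0.483 and 0.358 in 10 pairs, over 0.1 in 3 of 4 pairs at 6 h and in 0 of 3 at 1 day and 0 of 3 at 4 days. Since not every pair passed 0.1 at any time and no label says that a number is shared, the numbers were not taken to pair the samples. The groups of 3 and 4 arrays limit what could be called: at 6 h the 95% interval was 0.30 to either side for Npy, 0.28 for Pomc and 0.09 for Cpe.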

Other observations

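Values of 3 dopamine genes of the lists, chosen after they were seen, are given for DMSO arrays and for celastrol. Slc6a3, the dopamine transporter, was higher at 4 days than at 6 h by a log2 difference of 1.54 (SE 0.39, adjusted p = 0.162 by limma), Th, the rate-limiting enzyme of dopamine synthesis, by 0.62 (SE 0.15, adjusted p = 0.114) and Slc18a2, the vesicular monoamine transporter, by 0.46 (SE 0.16, adjusted p = 0.293). Celastrol minus DMSO at 4 days was -0.79 for Slc6a3, -0.35 for Th and -0.33 for Slc18a2. None of these differences was called. Both sets of differences use the same DMSO arrays of 4 days. High values in those arrays raise the first set and lower the second, so the opposite signs are not separate observations. Slc6a3 ran from 8.50 to 11.9 over all arrays.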
